A study of Oryza sativa with 36 samples.

Results

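The leaves described here came from seedlings of LTH (Li-Jiang-Xin-Tuan-Hei-Gu), a chilling-tolerant japonica rice, after 8 h at 4 °C. They were chosen by their labels alone and make up 3 of the 36 arrays, which fall into 12 groups of 3. They were set mainly against the 3 control arrays of LTH seedlings kept at 29 °C. Other groups used below are LTH leaves after 2, 24 and 48 h at 4 °C, LTH leaves chilled for 48 h and then given 24 h of recovery at 29 °C, and chilled (8 h) and control leaves of IR29, a chilling-sensitive indica rice. All seedlings were at the S3 stage, and the submitters used separate soil plates, sown with both genotypes, as biological replicates. Each genotype had 1 control group for all times, so the effect of the cold and that of the hour of sampling cannot be told apart in any comparison with the control. Leaves taken 2, 8 and 24 h into the cold also differ in the hour of sampling, under a light and dark cycle. Time in the cold and that hour cannot be told apart between them either. Whole leaves were measured, so a lower value can come from fewer cells of a type or from less RNA per cell, and these cannot be told apart.

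When a rice leaf is chilled, calcium enters the cytosol and is read by calcium-dependent kinases, by CBL sensors with their CIPK kinases, and by MAP kinase cascades. These act on transcription factors, of which the DREB1 (CBF) proteins, induced by cold and binding the DRE/CRT element, are the best known. Jasmonate, abscisic acid (ABA) and sugar signals join this response, while growth, water channels and pigment synthesis are commonly turned down.

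The values are array intensities in linear units, as normalized by the authors with dChip, and fold changes are given as log2 ratios with the standard error (SE) of a limma fit. A probe set was called higher or lower at an adjusted p under 0.05 and a change of at least 2-fold. Of 57258 probe sets, 4157 were higher (7.26%) and 3724 were lower (6.5%) in the chilled arrays than in the control arrays. At least 4-fold changes were found for 1450 higher and 906 lower probe sets, and 16-fold changes for 185 higher and 33 lower ones. With 1 probe set for each of 17905 annotated genes, 1890 genes were higher (10.6%) and 1974 were lower (11.0%), and the median log2 change over these genes was -0.06. Counts of gene groups below are to be read against these shares. The groups hold only genes matched by name, out of 2435 genes with a name, so they are not whole families.

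The chilled arrays were less alike than the control arrays. Each chilled array correlated with the other replicates of its group at 0.952 to 0.962 on the log2 scale, against 0.975 to 0.976 for the control arrays. Chilled array 1 held the lowest of the 3 chilled values for 53.6% of the genes called higher. Chilled array 3 held the highest of the 3 chilled values for 53.3% of all genes, and for all 18 genes of a dividing-cell marker list. The summed intensity of those 18 genes was 2507 units in chilled array 3, against 544 and 725 units in the other chilled arrays and 1375 to 1666 units in the control arrays. Counts that change by over 1.5 times without 1 array are therefore given with that array left out. The leaf label held in every array: rbcS, the small subunit of Rubisco, measured 4091, 4029 and 4039 units in the chilled arrays and 4301, 3793 and 3884 units in the control arrays, and rca, Rubisco activase, differed by a log2 fold change of 0.00 ± 0.09. Both belong to a list of 4 leaf mesophyll markers, of which none was called. The summed intensity of all 4 was lower in chilled leaves, at 11819.7 to 12617 units against 14215 to 14661 units in the control.

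**Figure D1:**
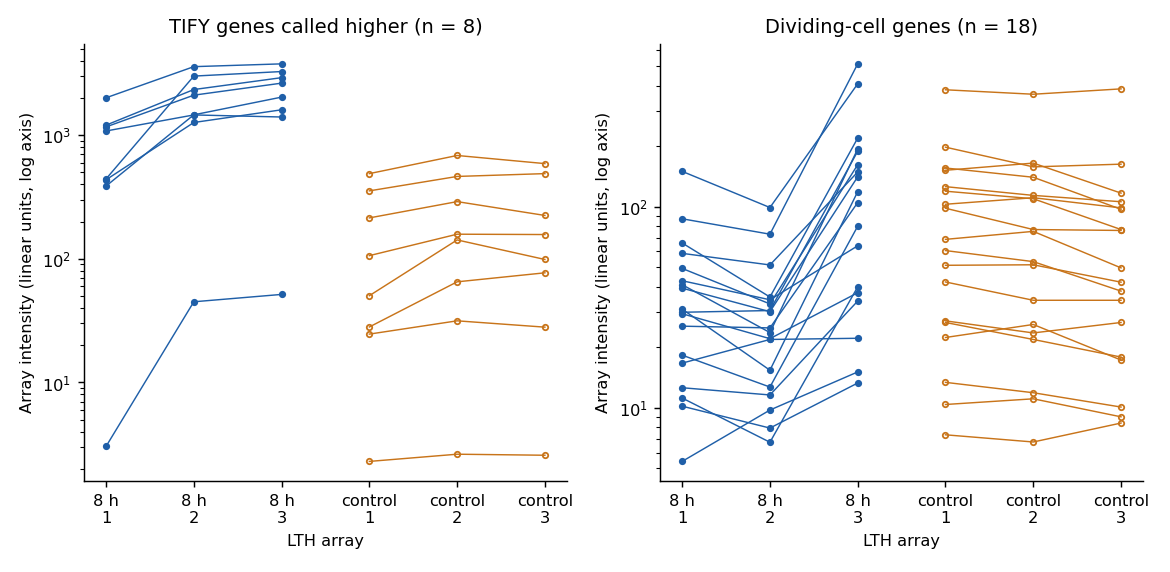
Intensity in linear units (log axis) of the 8 TIFY genes called higher (left) and of the 18 dividing-cell marker genes (right) in each LTH array, with chilled arrays filled and control arrays open; each line joins 1 gene within a group, and replicates have no order. Chilled array 1 is the lowest of the chilled arrays in all 8 TIFY genes, and chilled array 3 is the highest in all 18 dividing-cell genes.

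Most probe sets have no named gene, so the leading changes are given for genes with a name that reached 100 units in the higher group, and whose groups did not overlap by the rule that chose them. Called probe sets outside that rule changed more, 7 with a larger rise and 1 with a larger fall. ACA7, a calcium-transporting ATPase that pumps calcium out of the cytosol, had the largest rise of the named genes. It measured 541, 520.1 and 638 units in the chilled arrays, against 8.97, 8.78 and 7.97 units in the control arrays (log2 fold change 6.04 ± 0.26, adjusted p = 5.63e-16). Each group was tight, and the control values lay below the array median. BURP2, a BURP-domain protein, had the largest fall of the named genes, with 72.3, 64 and 12.5 units in the chilled arrays and 2168, 2037 and 1719 units in the control arrays (log2 fold change -5.67 ± 0.71, adjusted p = 4.79e-07). Chilled array 3 was lower than the other chilled arrays here, and all were far below the control.

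**Figure D2:**
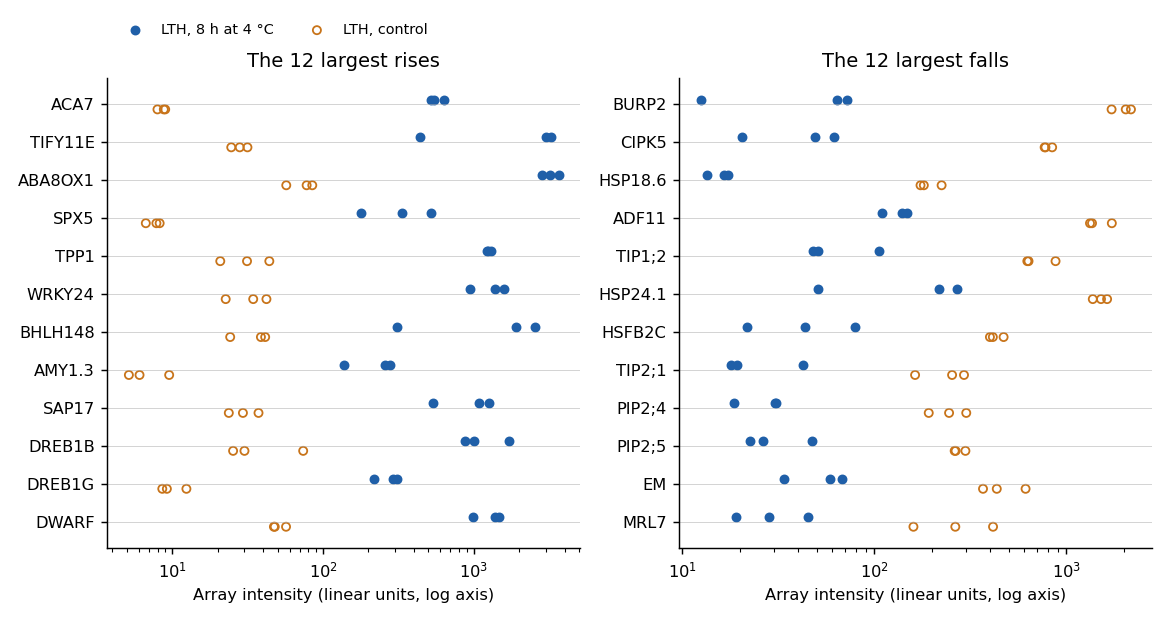
Intensity in linear units (log axis) of the 12 named genes with the largest rises (left) and the 12 with the largest falls (right), chosen among genes whose groups do not overlap, in each of the 3 LTH arrays after 8 h at 4 °C (filled, upper row of each gene) and the 3 LTH control arrays (open, lower row). ACA7 and BURP2 lead the lists, and TIFY11E and BHLH148 each have 1 chilled array well below the other two.

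Of 9 DREB regulators, 7 were higher, 1 was lower and 1 was not called, with a median log2 change of 1.62, and 5 or 6 were higher when any 1 array was left out. DREB1B, a CBF-type activator, measured 1716, 1009.5 and 878 units in the chilled arrays, against 73.8, 30.1 and 25.3 units in the control arrays (log2 fold change 4.91 ± 0.71, adjusted p = 4.61e-06). DREB1G, of the same family, measured 307, 293 and 217 units in the chilled arrays and 8.58, 12.4 and 9.2 units in the control arrays (4.76 ± 0.38, adjusted p = 9e-11). In both genes every chilled array was at least 10 times above every control array.

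DREB1A rose less, with 155, 77.5 and 128 units in the chilled arrays and 46.9, 29.2 and 21.3 units in the control arrays (log2 fold change 1.90 ± 0.46, adjusted p = 0.00252). DREB1E, at 25.5, 43.8 and 84.4 units in the chilled arrays and 15, 9.07 and 8.36 units in the control arrays, rose too (2.12 ± 0.69, adjusted p = 0.0247), and this call was lost when any of 4 arrays was left out, chilled arrays 2 and 3 among them. DREB1C, at 3.3 to 7.44 units in the chilled arrays and 8.35 to 14.2 units in the control arrays, was the 1 member called lower, near the bottom of the intensity range, and 4 of the 6 single-array omissions ended that call. Of the DREB2 factors, which act mainly in drought and heat, DREB2B rose by 1.62 ± 0.16 on the log2 scale. DREB2A was called higher too (1.45 ± 0.47, adjusted p = 0.0242), but 5 of the 6 single-array omissions ended its call, all but that of control array 2. DREB2D was not called (0.60 ± 0.81, adjusted p = 0.705).

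MYBS3, a repressor of DREB1 genes in rice that acts in slower cold adaptation, measured 2437, 2395 and 2226 units in the chilled arrays, against 826, 1117 and 977 units in the control arrays (log2 fold change 1.28 ± 0.11, adjusted p = 3.99e-10). A second probe set of MYBS3 averaged 219 units in chilled and 237 units in control leaves and was not called. MYB3R-2, a MYB factor tied to the cell cycle and cold tolerance, rose by 1.09 ± 0.14. Of the 11 MYB factors listed, 6 were higher and 3 lower, with 1 lower without chilled array 3. The probe set taken for MYBS2 was not called (-0.99), but its other probe sets were called lower (-1.72 and -1.6). MYB4, whose overexpression raises cold tolerance, measured 1016, 1582 and 1803 units in the chilled arrays and 63.8, 92 and 62.5 units in the control arrays (4.32 ± 0.23, adjusted p = 2.7e-14).

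**Figure D3:**
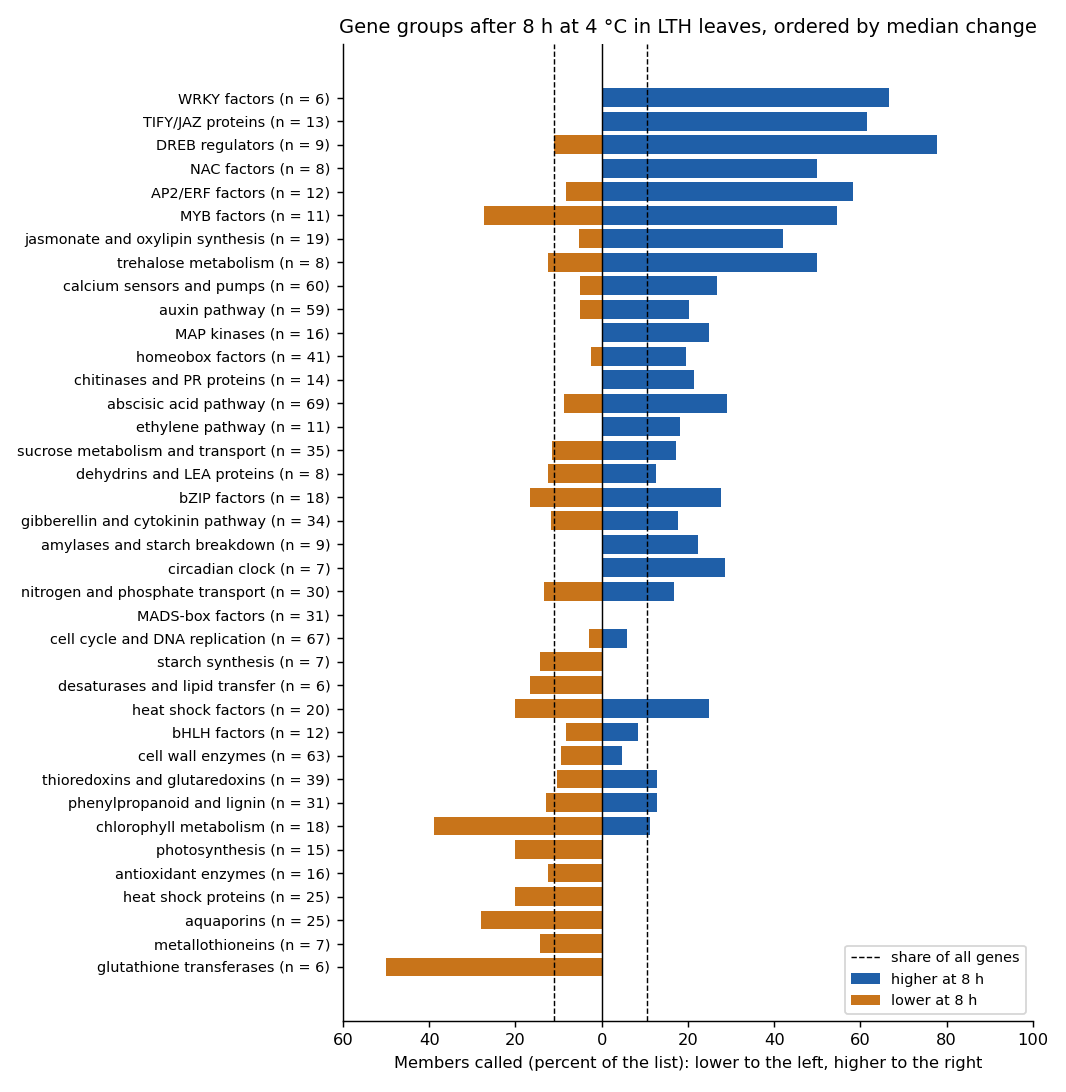
Percent of the members of each gene group (6 or more measured members, n beside the name) called lower (bars to the left) or higher (bars to the right) after 8 h at 4 °C in LTH leaves, with groups ordered from the highest median log2 change at the top, and dashed lines at the shares over all genes, 11.0% lower and 10.6% higher. WRKY, TIFY and DREB genes stand at the top, and aquaporins, metallothioneins and glutathione transferases at the bottom.

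Of 6 WRKY factors, known for roles in defence and stress, 4 were higher and none lower, with a median log2 change of 2.57. WRKY24 measured 948, 1378 and 1595 units in the chilled arrays and 22.6, 42.1 and 34.4 units in the control arrays (log2 fold change 5.32 ± 0.32, adjusted p = 4.45e-13), and WRKY71 rose by 3.51 ± 0.19. WRKY76, a repressor of defence genes, rose in every chilled array but unevenly, with 86.2, 431 and 806 units against 22.5, 37.7 and 25.8 units in the control arrays (3.47 ± 0.76, adjusted p = 0.000906). Of 8 NAC factors, 4 were higher and none lower, or 1 lower without control array 3. NAC068 measured 722, 765 and 1489 units in the chilled arrays and 45, 78.7 and 57.9 units in the control arrays (3.99 ± 0.30, adjusted p = 4.34e-11), while NAC6, a stress-related NAC, just missed the 2-fold limit (0.99 ± 0.12).

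Among the 12 bHLH factors listed only BHLH148 was higher and only BHLH063 lower. BHLH148, which binds JAZ proteins, measured 311, 1892 and 2557 units in the chilled arrays and 24.2, 38.7 and 41.3 units in the control arrays (log2 fold change 5.08 ± 0.51, adjusted p = 9.4e-09). Chilled array 1 was again the lowest by a wide margin. BHLH063 measured 118, 133 and 146 units in the chilled arrays and 869, 1432 and 1216 units in the control arrays (-3.12 ± 0.34, adjusted p = 3.57e-08). Of 18 bZIP factors 5 were higher and 3 lower, led by BZIP52 (3.01 ± 0.29). Of 41 homeobox factors 8 were higher and 1 lower, and the counts were 5 higher without chilled array 3, and 5 higher and none lower without control array 1. None of 31 MADS-box genes, mainly regulators of flowering and floral organs, was called in either direction.

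Heat shock factors, activators and repressors of heat shock genes, split in both directions. Of 20 members 5 were higher and 4 lower. HSFA9 measured 867, 972 and 957 units in the chilled arrays, against 75.5, 86.2 and 75.5 units in the control arrays (log2 fold change 3.56 ± 0.27, adjusted p = 4.73e-11), and HSFA3 rose by 2.80 ± 0.26. HSFB2C fell, with 21.7, 43.6 and 79.7 units in the chilled arrays and 414, 399.8 and 471 units in the control arrays (-3.34 ± 0.84, adjusted p = 0.00353). HSFB2B fell as well. HSFA2B was called lower (-1.83), and 5 of the 6 single-array omissions ended that call, all but that of chilled array 3.

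TIFY proteins, most of which are the JAZ repressors of jasmonate signalling, are themselves induced by jasmonate. Of 13 TIFY genes 8 were higher and none lower, with a median log2 change of 2.11. TIFY11E, a JAZ protein, measured 442, 2998 and 3263 units in the chilled arrays and 24.6, 31.5 and 28 units in the control arrays (log2 fold change 5.87 ± 0.59, adjusted p = 8.29e-09). TIFY11B measured 2002, 3574 and 3765 units in the chilled arrays and 214, 289.8 and 224 units in the control arrays (3.64 ± 0.27, adjusted p = 2.45e-11). In all 8 called genes chilled array 1 was the lowest of the chilled arrays, and in 7 of them chilled array 3 was the highest. TIFY9 (2.94), 1 of the 8, lost its call in 5 of the 6 single-array omissions, all but that of chilled array 1. TIFY10B (0.55 ± 0.18) and TIFY3 (-0.13 ± 0.11) were not called.

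Of 19 genes for enzymes that make jasmonate and other oxylipins 8 were higher and 1 was lower. LOX2.1, a lipoxygenase of the first step, measured 1158, 1131 and 1089.6 units in the chilled arrays and 58.6, 63.8 and 85.6 units in the control arrays (log2 fold change 4.04 ± 0.34, adjusted p = 2.44e-10). AOS2, an allene oxide synthase, rose by 2.97 on the log2 scale, and the oxophytodienoate reductase-like genes OPR10 and OPR1 by 3.47 ± 0.23 and 3.07 ± 0.59. AOC, the single allene oxide cyclase, measured 200.2, 687 and 852 units in the chilled arrays and 637, 659.9 and 551 units in the control arrays and was not called (-0.33 ± 0.40). OPR8, the member called lower (-1.08), lost its call without chilled array 1, chilled array 2 or control array 1.

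ABA is broken down by ABA 8'-hydroxylases, and its signal is held back by clade A type 2C protein phosphatases (PP2C). The list of 69 ABA pathway genes, mostly PP2C genes of all clades, had 20 higher and 6 lower members. ABA8OX1 measured 3670.4, 3199.8 and 2827 units in the chilled arrays, against 77.8, 84.8 and 57 units in the control arrays (log2 fold change 5.48 ± 0.31, adjusted p = 6.95e-14). ABA8OX2, of the same enzyme family, went the other way, with 54, 46.7 and 89.7 units in the chilled arrays and 239, 266 and 217 units in the control arrays (-1.98 ± 0.32, adjusted p = 2.07e-05). The phosphatases PP2C29, PP2C34 and PP2C32 rose by 3.97 ± 0.28, 3.63 ± 0.26 and 3.61 ± 0.20. ZEP1, zeaxanthin epoxidase of ABA synthesis, fell by 1.69 on the log2 scale.

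DWARF, a cytochrome P450 of late brassinosteroid synthesis, measured 1385, 1474 and 993 units in the chilled arrays and 47.8, 56.8 and 47.2 units in the control arrays (log2 fold change 4.65 ± 0.44, adjusted p = 3.21e-09). Of 59 auxin pathway genes 12 were higher and 3 lower, with 1 lower without control array 3. GH3-8, which conjugates auxin to amino acids, measured 129.7, 292 and 513 units in the chilled arrays and 27.5, 21 and 23.9 units in the control arrays (3.49 ± 0.57, adjusted p = 2.39e-05), and the auxin carrier PIN3a rose by 2.91 ± 0.40. Gibberellin and cytokinin genes had 6 higher and 4 lower of 34, and 3 higher without chilled array 3. GA20OX3, a gibberellin synthesis oxidase, rose by 1.72 ± 0.29, whereas its relative GA20OX2 fell by 1.66 and the cytokinin oxidase CKX11 fell by 1.86 on the log2 scale. Ethylene genes had 2 higher of 11, ACS2 of ethylene synthesis (1.78 ± 0.44) and the transcription factor EIL1B (1.83 ± 0.35).

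Calcium sensors and pumps had 16 higher and 3 lower of 60. Besides ACA7 the pump ACA1 rose by 2.07, and the calcium-dependent kinases CPK4, CPK13 and CPK5 rose by 2.71, 2.66 and 2.13 on the log2 scale. CIPK genes, whose kinases act with CBL calcium sensors, went both ways. CIPK26 and CIPK2 rose by 2.15 and 1.91, while CIPK5 measured 49.3, 61.3 and 20.5 units in the chilled arrays and 778, 843 and 770.4 units in the control arrays (log2 fold change -4.33 ± 0.37, adjusted p = 5.08e-10). CIPK1 was not called (-0.12 ± 0.22). Of 16 MAP kinases 4 were higher and none lower. MAPK5, a stress and pathogen-responsive kinase, measured 1364, 1866 and 2015 units in the chilled arrays, against 172, 184 and 126 units in the control arrays (3.44 ± 0.23, adjusted p = 2.98e-12). MPK14 (1.15 ± 0.16) fell below the 2-fold limit without control array 1 (0.98).

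Trehalose-6-phosphate phosphatases (TPP) turn a sugar-signalling phosphate into trehalose. Of 8 trehalose genes 4 were higher and 1 lower. TPP1 measured 1239, 1305 and 1219 units in the chilled arrays, against 44, 31.3 and 20.8 units in the control arrays (log2 fold change 5.36 ± 0.26, adjusted p = 4.18e-15), with nearly equal chilled values. TPP7 measured 1108, 1381 and 1327 units in the chilled arrays and 253, 248 and 233 units in the control arrays (2.37 ± 0.24, adjusted p = 1.16e-08). The lower one, TPP3, was under 10 units in every array, and its call was lost without chilled array 1, control array 1 or control array 2.

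AMY1.3, an alpha-amylase repressed by sugar, measured 138, 257 and 280.0 units in the chilled arrays, against 9.53, 6.06 and 5.15 units in the control arrays (log2 fold change 5.01 ± 0.71, adjusted p = 3.2e-06). The only other starch-breakdown gene of 9 called was AMY1.5, whose call was lost without chilled array 3. Of 35 sucrose genes 6 were higher and 4 lower, with 2 lower without control array 2. The sucrose synthesis gene SPS2F rose by 2.92 ± 0.33 from a level under 7 units in the control, and the sucrose transporter SUT4 measured 338, 371 and 392 units in the chilled arrays and 116, 127 and 130.5 units in the control arrays (1.56 ± 0.26, adjusted p = 3.07e-05). Among sugar transporters of the SWEET family, SWEET14 (2.63 ± 0.40) and SWEET2b (2.05 ± 0.46) rose, and SWEET1b (-1.37 ± 0.29) and SWEET16 (-2.72 ± 0.56) fell.

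SPX proteins sense phosphate status through inositol pyrophosphates and restrain the phosphate starvation factor PHR. SPX2 measured 2356, 2539.9 and 1597 units in the chilled arrays, against 101, 104 and 109 units in the control arrays (log2 fold change 4.35 ± 0.28, adjusted p = 1.98e-12). SPX1 measured 1931, 2654 and 1801 units in the chilled arrays and 122, 112 and 104 units in the control arrays (4.22 ± 0.16, adjusted p = 5.19e-17). SPX5 measured 334, 522 and 178 units in the chilled arrays and 6.67, 7.84 and 8.24 units in the control arrays (5.38 ± 0.46, adjusted p = 3.55e-10). Chilled array 2 was the highest in all 3 genes.

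The phosphate transporters Pht1;8 (1.71 ± 0.35) and Pht1;1 (1.62 ± 0.19) also rose, whereas Pht1;3 (-1.45 ± 0.27) and the phosphate exporter gene PHO1;3 (-1.22 ± 0.40) fell, the last losing its call without chilled array 2 or 3 or control array 2 or 3. The ammonium transporters AMT1-2 and AMT3-3 fell by 2.13 and 1.88 on the log2 scale, and the whole list of 30 nitrogen and phosphate genes had 5 higher and 4 lower members and a median log2 change of 0.01. NIGT1, a nitrate-inducible repressor that restrains nitrogen uptake, measured 689, 929 and 724 units in the chilled arrays and 34.1, 51.1 and 41 units in the control arrays (4.22 ± 0.26, adjusted p = 5.47e-13).

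With 1 probe set for each gene, 7 of 18 chlorophyll genes were lower, all of synthesis, and 2 were higher, both of breakdown. This split depends on the probe set taken for GLK2, an activator of chlorophyll synthesis genes, which was not called (0.67) although its 3 other probe sets were called higher (1.14, 1.19 and 1.32). PORB, protochlorophyllide oxidoreductase of the light-dependent step, measured 242, 284 and 248 units in the chilled arrays, against 2352, 1945 and 1865 units in the control arrays (log2 fold change -2.99 ± 0.27, adjusted p = 1.21e-09). CHLI, a magnesium chelatase subunit, measured 4.25, 13.4 and 6.96 units in the chilled arrays and 92.9, 93.4 and 91.8 units in the control arrays (-3.66 ± 0.48, adjusted p = 8.01e-07). PORA, CHLG, CHLP, CHLH and GSA, all of chlorophyll synthesis, fell by 2.41, 1.72, 1.44, 1.36 and 1.28 on the log2 scale.

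SGR, the stay-green protein that takes magnesium out of chlorophyll, measured 674, 1204 and 963 units in the chilled arrays and 154, 243 and 217 units in the control arrays (log2 fold change 2.20 ± 0.25, adjusted p = 7.29e-08). NYC1, a chlorophyll b reductase, measured 399, 692 and 476 units in the chilled arrays and 255, 104 and 107 units in the control arrays (1.84 ± 0.33, adjusted p = 8.68e-05). Photosynthesis genes moved less, with 3 of 15 lower and none higher, or 5 lower without chilled array 2. The light-harvesting gene RCABP69 measured 1821, 2052 and 1439 units in the chilled arrays and 3915, 3848 and 3962 units in the control arrays (-1.16 ± 0.24, adjusted p = 0.000522), while PETE, plastocyanin, was not called (-0.24 ± 0.11). The summed intensity of the 4 mesophyll markers ranged over 11819.7 to 12617 units in chilled leaves and 14215 to 14661 units in control leaves, with no member called. Its part in these changes was not tested.

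Heat shock proteins, chaperones that hold or refold damaged proteins, had 5 of 25 lower and none higher. HSP24.1, a small heat shock protein, measured 50.7, 216 and 268 units in the chilled arrays and 1372, 1514 and 1629 units in the control arrays (log2 fold change -3.39 ± 0.78, adjusted p = 0.00151). HSP81-1, of the HSP90 class, measured 330.0, 415 and 679 units in the chilled arrays and 2551, 2849 and 2704 units in the control arrays (-2.57 ± 0.56, adjusted p = 0.000874). A second probe set of HSP81-1 averaged 282 units in chilled and 355 units in control leaves and was not called (-0.84, adjusted p = 0.402). Its relatives HSP81-2 (0.34 ± 0.11) and HSP81-3 (-0.03 ± 0.19) stayed under the 2-fold limit. HSP18.6 fell by 3.62 ± 0.82, and the ClpB-type chaperones CLPB-M and CLPB-C by 2.64 ± 0.68 and 1.73 ± 0.24.

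With 1 probe set for each gene, none of 16 antioxidant enzyme genes was higher and 2 were lower, of which sodCp, chloroplast copper-zinc superoxide dismutase (-1.05 ± 0.22), fell below the limit without control array 1 (-0.99). The probe set taken for APX2, also of this list, was not called (-0.8). Other probe sets of APX2 were called lower at -3.5 (27.5 against 287 units) and -1.1 (1595 against 3334 units), and another was not called (-0.19). Of 39 thioredoxins and glutaredoxins 5 were higher and 4 lower, with 3 higher without chilled array 2. The glutaredoxin GRXS5 measured 2635, 3224 and 3526 units in the chilled arrays and 717, 846 and 593 units in the control arrays (log2 fold change 2.13 ± 0.16, adjusted p = 2.67e-11). The thioredoxin Trx25 measured 109, 98.6 and 184 units in the chilled arrays and 762, 510.1 and 611 units in the control arrays (-2.30 ± 0.28, adjusted p = 3.01e-07). Of 6 glutathione transferases 3 were lower, GSTZ5 by 1.79 ± 0.26, GSTF1 by 1.66 ± 0.42 and GSTF2 by 1.18 ± 0.36, and GSTF2, whose chilled and control values overlapped, lost its call without chilled array 1 (-0.97), chilled array 2 (-0.94), control array 1 or control array 2.

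Aquaporins, the water channels of the plasma membrane (PIP) and the vacuole (TIP), fell or were not called, with 7 of 25 lower and none higher and a median log2 change of -0.65. TIP1;2 measured 50.7, 47.9 and 106 units in the chilled arrays, against 878, 635 and 626 units in the control arrays (log2 fold change -3.47 ± 0.59, adjusted p = 4.14e-05). PIP2;5 measured 26.4, 22.6 and 47.1 units in the chilled arrays and 265, 298 and 262 units in the control arrays (-3.17 ± 0.50, adjusted p = 1.4e-05). TIP2;1, PIP2;4, PIP2;7 and PIP1;3 fell by 3.23, 3.22, 2.06 and 1.81 on the log2 scale, and the call of PIP2;2 (-1.53 ± 0.48) was lost when any of 4 single arrays was left out.

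PIP1;1 was not called, with 1567, 1497 and 3363 units in the chilled arrays and 3102, 3424 and 2893 units in the control arrays (log2 fold change -0.65 ± 0.40). Chilled array 3 lay within the control range for it, and the same array was the highest of the chilled ones in 16 of the 25 aquaporins. A list of 4 root markers, of which the silicon channel NIP2-1 is itself an aquaporin, had summed intensities of 92.8 to 123 units in chilled leaves and 217 to 395 units in control leaves, with 1 member called lower. Its part in the aquaporin values was not tested.

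Of 8 dehydrin and LEA genes only Dhn1 was higher and only EM lower, with 2 higher without chilled array 1 or control array 2. Dhn1, a dehydrin, measured 1877, 2193 and 2322 units in the chilled arrays and 693, 707 and 517 units in the control arrays (log2 fold change 1.75 ± 0.22, adjusted p = 3.23e-07). EM, a LEA protein abundant in seeds, measured 67.7, 59 and 33.9 units in the chilled arrays and 368, 613 and 434 units in the control arrays (-3.17 ± 0.84, adjusted p = 0.00568). The 5 seed markers summed to 165 to 239.9 units in chilled leaves and 291 to 298 units in control leaves, with 1 member called in each direction, and their part was not tested. RAB21, an ABA-induced dehydrin, measured 322, 97.3 and 404 units in the chilled arrays and 64.3, 201 and 98.4 units in the control arrays, which overlapped (1.10 ± 0.83). SAP17, a zinc-finger stress-associated protein, rose by 4.93 ± 0.40, with 534, 1261 and 1089.7 units in the chilled arrays and 37.3, 29.4 and 23.7 units in the control arrays.

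Of 67 cell cycle and replication genes 4 were higher and 2 lower, but 7 were lower without chilled array 3, the array high in dividing-cell genes. Among the higher ones the cyclin gene CYCB1-3 (1.43) lost its call in each of the 6 single-array omissions. The D-type cyclin CYCD5-3, which acts at entry into the cycle, measured 378, 559 and 397 units in the chilled arrays and 54.3, 69.2 and 67.5 units in the control arrays (log2 fold change 2.79 ± 0.26, adjusted p = 2.64e-09). PCNA, the sliding clamp of DNA replication, measured 150.1, 99.2 and 409 units in the chilled arrays and 382, 363 and 386 units in the control arrays (-1.05 ± 0.50, adjusted p = 0.161). Chilled array 3 lay above every control array, and the other chilled arrays lay below them.

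Of 63 cell wall genes 3 were higher and 6 lower. The expansin EXPA2, which loosens walls for growth, measured 55, 63.7 and 58.4 units in the chilled arrays and 412, 467 and 399 units in the control arrays (log2 fold change -2.85 ± 0.44, adjusted p = 1.28e-05), and EXPB7 fell by 2.10 ± 0.58. MAN7, an endo-mannanase, rose by 2.89 ± 0.27. ADF11, an actin-depolymerizing factor, measured 109, 148 and 139 units in the chilled arrays and 1359.5, 1724 and 1327 units in the control arrays (-3.48 ± 0.38, adjusted p = 3.12e-08). MRL7, needed for chloroplast gene expression in Arabidopsis, fell by 3.16 ± 0.41.

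Phenylpropanoid genes, which make lignin and flavonoids, had 4 higher and 4 lower of 31, and 2 lower without chilled array 1 or 3 and 1 lower without control array 1 or 2. CCR1, a cinnamoyl-CoA reductase of lignin synthesis, measured 24.5, 50.4 and 16.7 units in the chilled arrays and 2.8, 2.87 and 2.62 units in the control arrays (log2 fold change 3.31 ± 0.46, adjusted p = 2.15e-06), and 4CL5, a coumarate CoA ligase, rose by 2.95 ± 0.45. Of 14 chitinase and pathogenesis-related genes 3 were higher, and 1 without control array 3. Cht6, a chitinase, measured 609, 1013 and 1254 units in the chilled arrays and 59.6, 89.7 and 91.6 units in the control arrays (3.54 ± 0.37, adjusted p = 2.15e-08). LTP, a lipid transfer protein, fell by 1.58 ± 0.28, and the metallothionein MT-2 by 1.32 ± 0.27.

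With 1 probe set for each gene, 2 of 7 circadian clock genes were higher and none lower. The probe set taken for PRR73 was not called (-0.86). A second probe set of PRR73 was called lower, averaging 105 units in chilled and 229 units in control leaves (-1.13, adjusted p = 2.81e-05). PRR1, an evening pseudo-response regulator, measured 739.8, 834 and 783 units in the chilled arrays, against 289, 157 and 209 units in the control arrays (log2 fold change 1.89 ± 0.20, adjusted p = 3.28e-08). PRR95 measured 2889, 3123 and 2845 units in the chilled arrays and 1058, 1119 and 1043 units in the control arrays (1.46 ± 0.13, adjusted p = 4.9e-10). The morning factor CCA1 measured 3192, 3124 and 2514 units in the chilled arrays and 1069.7, 2719 and 2145 units in the control arrays, which overlapped (0.67 ± 0.22). These genes cycle daily, and with 1 control group the cold and the hour of sampling cannot be told apart.

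The 8 h leaves differed from the 2 h leaves in far fewer genes than from the control. Time in the cold and the hour of sampling cannot be told apart in this comparison. Of all 57258 probe sets, 144 were higher (0.251%) and 101 were lower (0.176%) at 8 h than at 2 h. In genes these were 81 higher (0.452%) and 53 lower (0.296%). Leaving out 1 of the 8 h arrays gave 63 to 106 higher and 39 to 52 lower probe sets. DWARF averaged 1284 ± 256 units at 8 h and 183 ± 61 units at 2 h (SD, n = 3 each, log2 fold change 2.86 ± 0.44 SE, adjusted p = 0.00128). SPX2 averaged 2165 ± 499.7 units at 8 h and 399 ± 95.5 units at 2 h (2.44 ± 0.28, adjusted p = 1.78e-05). NIGT1 averaged 781 ± 129 units at 8 h and 120.4 ± 18 units at 2 h (2.69 ± 0.26, adjusted p = 4.38e-07). SPX5, SPX1, CCR1 and OPR10 were higher at 8 h by 2.65, 1.58, 3.24 and 1.66 on the log2 scale. The clock gene PCL1 was called higher at 8 h too, but lost its call without 8 h array 1 (1.72) or 2 (1.65). CDKB2-1, a mitotic kinase, was also higher (2.56 ± 0.54), with 66.1, 35.6 and 219.8 units in the 8 h arrays and an average of 13.8 ± 2.79 units at 2 h, but its call was lost without the third of these arrays (1.83).

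The genes that were lower at 8 h than at 2 h included heat shock genes, in which 3 of 25 heat shock proteins and 1 of 20 heat shock factors were called lower and none higher. HSFA2A, a main activator of heat shock genes, measured 6.99, 8.13 and 9.94 units in the 8 h arrays and averaged 1072 ± 1033 units at 2 h (log2 fold change -5.41 ± 1.08, adjusted p = 0.0138). HSP18.1 averaged 14 ± 2.5 units at 8 h and 1382 ± 1237 units at 2 h (-5.22 ± 1.00, adjusted p = 0.00951). HSP17.4 averaged 25.9 ± 5.66 units at 8 h and 2022 ± 1749 units at 2 h (-5.13 ± 1.10, adjusted p = 0.0215). The SD at 2 h was almost as large as the mean in each of these, so the 2 h arrays differed widely from one another. HSP18.1 kept its call without any 1 of the 8 h arrays, whereas HSFA2A lost it without array 1 or 2 and HSP17.4 without each of them in turn, with log2 fold changes of -4.93 to -5.40 in these fits. No 2 h array was left out, so whether a call rests on 1 of the 2 h arrays was not tested. Against the control the probe sets taken for these 3 genes missed the call at 8 h, HSFA2A at -2.77 ± 1.08 (adjusted p = 0.0697). Each chilled array was below each control array, but the groups did not overlap in 36.5% of all probe sets. A second probe set of HSP18.1 was called lower, averaging 12.2 units at 8 h and 86.6 units in the control (-2.83, adjusted p = 0.0455).

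**Figure D4:**
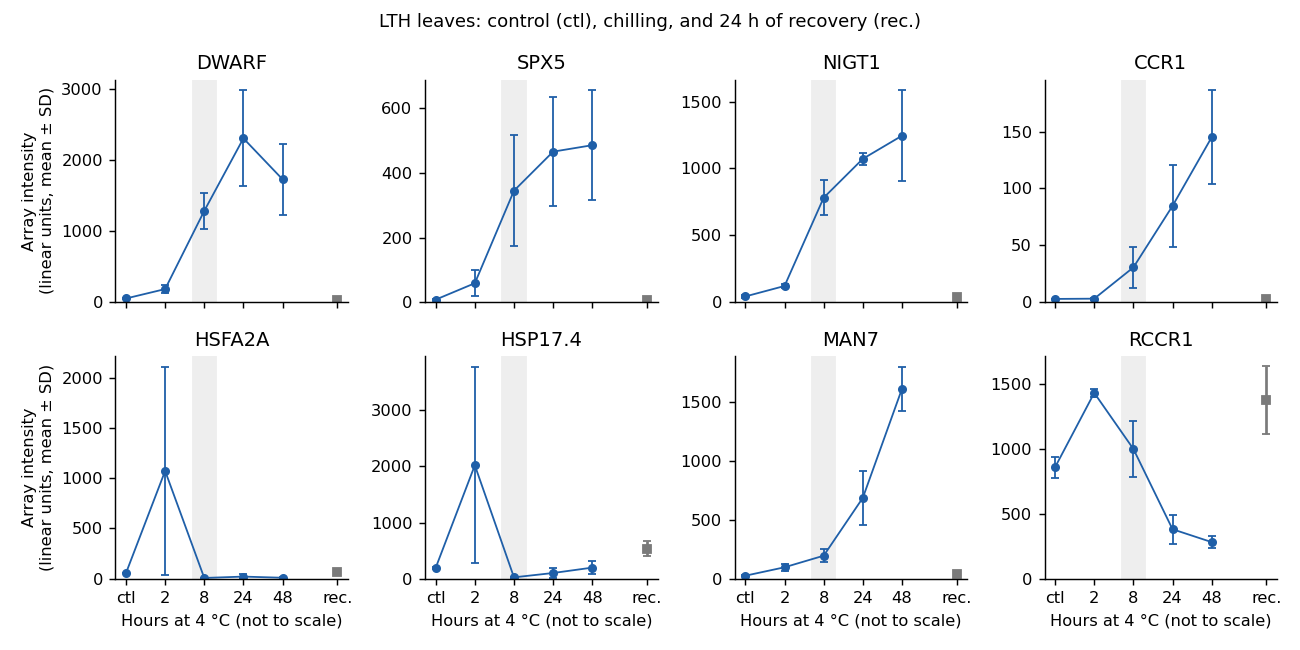
Mean intensity in linear units (error bars: SD, n = 3 arrays) of 8 genes in LTH leaves of the control, after 2, 8, 24 and 48 h at 4 °C (times evenly spaced, not to scale) and after 24 h of recovery (grey square), with 8 h shaded. DWARF, SPX5, NIGT1 and CCR1 were higher at 8 h than at 2 h, HSFA2A and HSP17.4 were lower, and MAN7 rose and RCCR1 fell between 8 and 24 h.

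Between 8 and 24 h the changes were again few, with the same limit from the hour of sampling. Of 57258 probe sets, 107 were higher (0.187%) and 102 were lower (0.178%) at 24 h than at 8 h, or 46 (0.257%) and 70 (0.391%) of the genes. This comparison uses the same 8 h arrays as the last one, and leaving out 1 of them gave 42 to 105 higher and 42 to 80 lower probe sets. MAN7 averaged 687 ± 228 units at 24 h and 196 ± 55.1 units at 8 h (log2 fold change 1.79 ± 0.27, adjusted p = 0.00132). RCCR1, a red chlorophyll catabolite reductase, averaged 381 ± 112 units at 24 h and 998 ± 215 units at 8 h (-1.41 ± 0.22, adjusted p = 0.00132). Trx08, a thioredoxin, averaged 161 ± 35 units at 24 h and 384 ± 50.9 units at 8 h (-1.27 ± 0.18, adjusted p = 0.000805). These 3 genes kept their call without any 1 of the 8 h arrays, and the other 7 of the 10 genes named for this comparison did not, among them HAP2B, a CCAAT-binding factor subunit (1.79 ± 0.42), and LAC7, a laccase (-1.72 ± 0.39). No 24 h array was left out.

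After recovery the mean lay within 2-fold of the control mean in 8 of the 12 named genes with the largest rises at 8 h and in 9 of the 12 with the largest falls. The share over all genes was not counted, so these counts do not show whether the leading genes differ from the rest. TPP1 averaged 20.3 units in recovered and 32 units in control leaves. BURP2 averaged 3448 units in recovered and 1975 units in control leaves. ACA7, at 34.9 units in recovered and 8.57 units in control leaves, was called higher after recovery (2.00 on the log2 scale), as was SAP17, at 117 units in recovered and 30.1 units in control leaves (1.94). EM, at 20.7 units in recovered and 472 units in control leaves, was called lower (-4.47). TIFY11E, BHLH148, TIP2;1 and PIP2;4 lay outside 2-fold and were not called. DREB1B averaged 745, 1549 and 978 units at 2, 24 and 48 h, so it was high at every time in the cold. TPP1 averaged 1155, 937 and 911 units at these times. SPX5 averaged 58.4, 466 and 486 units, and DREB2B 127, 437 and 682 units, with the highest mean at 48 h in both.

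The 8 h response of LTH was compared with that of IR29 by testing the difference of the 2 fold changes. The log2 fold change was higher in LTH than in IR29 for 1295 probe sets (2.26%) and lower for 337 (0.589%). A higher value can be a larger rise in LTH or a larger fall in IR29, and a lower one the reverse. In genes these were 665 (3.71%) and 132 (0.737%), and leaving out 1 of the LTH 8 h arrays gave 702 to 1487 and 206 to 488 probe sets, the lowest of both without array 2. In IR29 itself 4146 probe sets were higher (7.24%) and 4567 lower (7.98%) after 8 h. Of the 34 genes named for this difference, 16 lost the call when 1 of the 6 LTH arrays was left out, and the values below are of genes that kept it unless stated. No IR29 array was left out.

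Of 30 nitrogen and phosphate genes 6 had a higher log2 fold change in LTH than in IR29 and none a lower one. SPX2 rose by a log2 fold change of 4.35 ± 0.28 in LTH, against a change of 0.90 that was not called in IR29, where it averaged 323 units in chilled and 172 units in control leaves (difference 3.45, adjusted p = 8.42e-06). SPX1 rose by 4.22 ± 0.16 in LTH and 1.73 in IR29 (difference 2.49, adjusted p = 3.55e-07). SPX5 rose by 5.38 ± 0.46 in LTH and 2.09 in IR29, where it averaged 13.3 units in chilled and 3.29 units in control leaves (difference 3.29, adjusted p = 0.00284). The IR29 control level lay near the bottom of the intensity range, so the size of the SPX5 difference is uncertain. The ammonium transporter AMT1 had a log2 fold change of 0.57 ± 0.31 in LTH and -2.08 in IR29 (difference 2.65, adjusted p = 0.000416). A second probe set of AMT1 rose by 3.32 in LTH.

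SWEET2b rose in LTH and fell in IR29. It measured 1912, 2669 and 1814 units in chilled and 369, 648 and 548 units in control LTH leaves, and averaged 145 units in chilled and 424 units in control IR29 leaves (log2 fold changes 2.05 and -1.60, difference 3.65, adjusted p = 0.00109). CCR1 rose by 3.31 in LTH and changed by -0.33 in IR29 (difference 3.64, adjusted p = 0.00108). The CCR1 values of the LTH control lay near the bottom of the intensity range, so the size of this difference is uncertain. SGR rose by 2.20 in LTH, against 0.09 in IR29 (difference 2.10, adjusted p = 0.00052). TPP1 rose in both genotypes and more in LTH, with a difference of 1.77. So did DWARF (2.62) and WRKY24 (1.91), but DWARF lost the call without chilled array 2 (2.51) and WRKY24 without control array 1 (1.66).

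Other genes ran the opposite way. DREB1A rose by 1.90 ± 0.46 in LTH, against 4.94 in IR29, where it averaged 1339 units in chilled and 50.4 units in control leaves (difference -3.03, adjusted p = 0.00616). For DREB1B and DREB1G the difference was 0.04 (adjusted p = 0.991) and -0.08 (adjusted p = 0.971) and was not called. PORB fell by 2.99 ± 0.27 in LTH, against a log2 change of -1.19 in IR29 (difference -1.80, adjusted p = 0.00601). ORC2, of the replication origin complex, averaged 280.2 units in chilled and 115 units in control IR29 leaves, and the responses differed by -2.14 (adjusted p = 0.00131). It is 1 of the 18 dividing-cell markers, which summed to 1108 to 1821 units in chilled and 389 to 1053 units in control IR29 leaves. The median difference over these markers was -1.64, with 1 called. Their part in the ORC2 difference was not tested.

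For some genes the fitted difference rests on values that cannot be told from background. HSP16.0, a small heat shock protein, measured 2.97, 1.19 and 3.04 units in chilled and 3.57, 2.14 and 2.11 units in control LTH leaves, so its response in LTH was not measurable. It averaged 3.15 ± 1.44 units in chilled and 806 ± 152 units in control IR29 leaves (SD, n = 3 each), and the fitted difference of 7.88 (adjusted p = 3.64e-05) is not a measured size. PIP2;8, an aquaporin at under 5 units in every chilled and control LTH array, averaged 49.1 units in chilled and 2.87 units in control IR29 leaves (difference -4.61, adjusted p = 0.00958), and the same limit holds for it.

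**Figure D5:**
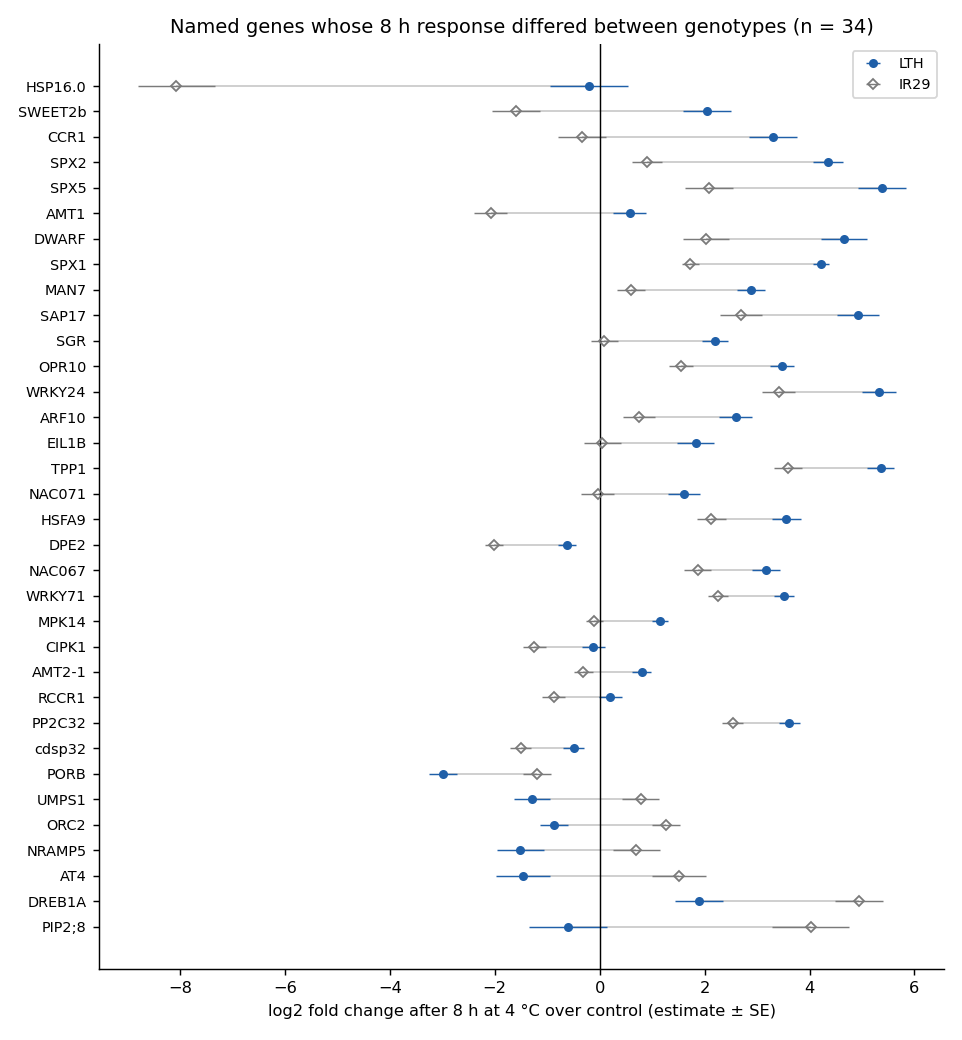
Log2 fold change after 8 h at 4 °C over control (estimate, error bars: SE) in LTH (filled) and IR29 (open) for the 34 named genes whose response differed between the genotypes, ordered by the difference. SWEET2b rose in LTH and fell in IR29, the 3 SPX genes rose more in LTH, and DREB1A rose more in IR29.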

How the data were processed

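RNA from whole leaves was hybridised to Affymetrix GeneChip Rice Genome Arrays, 1 per sample, whose probes were designed mostly on japonica transcripts. Per the study's methods, the authors scanned the arrays with GCOS and normalized them in dChip, and they deposited linear intensities for 57258 probe sets on 36 arrays, with no detection calls, so low values cannot be told from background. The number of arrays, 3 a group, limits the precision.

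Values below 1 were set to 1 and taken as log2. Means of the 12 groups, as the labels give them, were fitted to all arrays with limma 3.58.1 in R 4.3.3, with an intensity trend in the variance. All adjusted p-values are from this fit, two-sided, with Benjamini-Hochberg adjustment over all probe sets. A difference was called at an adjusted p under 0.05 and at least 2-fold. P-values measure the spread between these samples, which the study took from separate soil plates. No scan date or other batch was given in the sources used here.

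Of the probe sets, 22436 were matched to 1 gene, 95 to several and 34727 to none. Symbols came from RefSeq. A gene was represented by its probe set with the highest mean over all arrays, and 3444 genes had more than 1. Second probe sets of DREB1C, Dhn1, HSFB2B, HSP18.6, MT-2, PIP2;2 and TPP7 averaged under 6 units in both groups and were not called. Named genes were the 12 largest rises and 12 largest falls (called, with a RefSeq symbol, at least 100 units in the higher group and no overlap). Added to them were up to 4 called and 2 uncalled members of each of the gene lists, and the 4 largest changes in each direction of the other comparisons. Also named were DREB1A, DREB1C, DREB2B, MYBS3 and MYB3R-2, which the study discusses, and every member of the aquaporin and clock lists. Other list members given with values were picked after their values were seen. The members and lists were chosen with earlier results of these data known. The fit was tested on simulated data. Alternatives covered scaling, floor, filter, fold rule, test, replicate block and single arrays. Promoter motifs were not analysed here. Tables and figures were made with Python 3.11.15, pandas 2.3.3 and matplotlib 3.10.9.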

Additional observations from a re-analysis of the deposited data

Results flagged for a closer look

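The 34 named genes below were flagged because their 8 h response, the log2 fold change over control, differed between LTH and IR29 by the test of that difference. The values are LTH minus IR29. In 27 genes the rise was larger or the fall smaller in LTH, and in 7 it was the other way.

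Of phosphate and nitrogen genes, the differences were 3.45 for SPX2, 3.29 for SPX5, 2.49 for SPX1, 2.65 for AMT1 and 1.10 for AMT2-1. Of transcription factors they were 1.91 for WRKY24, 1.26 for WRKY71, 1.65 for NAC071, 1.30 for NAC067, 1.43 for HSFA9, 1.78 for EIL1B, 1.84 for ARF10 and -3.03 for DREB1A. Of hormone and signalling genes they were 2.62 for DWARF, 1.92 for OPR10, 1.07 for PP2C32, 1.12 for CIPK1 and 1.25 for MPK14. Of sugar genes they were 3.65 for SWEET2b, 1.77 for TPP1 and 1.39 for DPE2, a disproportionating enzyme of starch breakdown.

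Of chlorophyll, redox and wall genes the differences were 2.10 for SGR, 1.08 for RCCR1, -1.80 for PORB, 1.01 for cdsp32, 3.64 for CCR1 and 2.29 for MAN7. The remaining ones were 7.88 for HSP16.0, 2.24 for SAP17, -4.61 for PIP2;8, -2.97 for AT4, -2.21 for NRAMP5, -2.14 for ORC2 and -2.07 for UMPS1. HSP16.0 and PIP2;8 were near the bottom of the intensity range in all LTH chilled and control arrays, so their differences are not measured sizes. CCR1 in LTH control leaves and SPX5 in IR29 control leaves were near it too, so the sizes of their differences are uncertain. Leaving out 1 of the 6 LTH arrays ended the call of 16 of the 34 genes, which were WRKY24, SAP17, DWARF, NAC067, NAC071, HSFA9, PP2C32, EIL1B, ARF10, CIPK1, cdsp32, AMT2-1, NRAMP5, RCCR1, AT4 and UMPS1.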

How the results depend on the processing

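After 8 h in LTH, 4157 probe sets were higher and 3724 lower. With 1 probe set per gene the counts were 1890 and 1974, with the lower limit of the 90% interval at 2-fold 2250 and 1617, with the methods' t-test after Benjamini-Hochberg 955 and 553 (4071 and 3457 at its unadjusted threshold), and with a difference of at least 100 units 1968 and 1552. Without a fold minimum 6366 were higher. Leaving out 1 array gave 3607 to 4003 higher and 2927 to 3863 lower. Members of the gene lists numbered 157 higher and 86 lower, against 140 to 166 and 70 to 85 without 1 array.

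Between 8 and 2 h the counts were 144 higher and 101 lower, against 67 lower without the variance trend, 113 and 111 with quantile normalization, 119 and 130 with median centring, and 63 to 106 higher and 39 to 52 lower without 1 array. Between 24 and 8 h they were 107 and 102, against 110 and 45 with quantile normalization, 117 and 62 with median centring, 224 lower without a fold minimum, and 42 to 105 higher and 42 to 80 lower without 1 array. The genotype difference, with the log2 fold change higher in LTH for 1295 and lower for 337, gave 702 to 1487 and 206 to 488. The cause of these shifts was not tested.

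To look for pairing, the group mean was subtracted from each array without the dimmest 40% of probe sets. These deviations, not the intensities, were correlated between same-numbered arrays. The values were -0.116, -0.054 and -0.342 between chilled and control, and 0.0417, 0.328 and 0.076 between 8 and 2 h. They were 0.437, -0.7 and -0.527 between 24 and 8 h, and -0.0499, 0.283 and 0.213 between the genotypes at 8 h. Deviations within a group cancel out, which limits what these values can show. No comparison had all 3 above 0.1, so no pairing was taken from the numbers. By the study's methods the plates held both genotypes, but the labels do not match arrays to plates. The main fit therefore treated the arrays as independent and left this sharing out. With the replicate block the counts were 4221 and 3739 after 8 h, 154 and 139 between 8 and 2 h, 109 and 105 between 24 and 8 h, and 1408 and 362 between the genotypes.

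Of 254 named genes 141 were called, none changed direction under any alternative run, 28 lost the call under at least 1, and 26 of them without 1 array. Single-array fits were added after seeing the data for the list counts and for named genes of the other comparisons, of which 6 of 14 (8 against 2 h), 7 of 10 (24 against 8 h) and 16 of 34 (genotypes) lost the call. Only LTH 8 h and LTH control arrays were left out, so dependence on single arrays of the other groups was not tested. Promoter motifs were not run.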
